A study of Homo sapiens with 18 samples.

Results

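Doxycycline, given without estradiol to U2OS cells that carry an inducible estrogen receptor alpha (ERα) vector, changed the signal of 2 of 13505 genes. ATF3, a stress-induced transcription factor, rose about 2-fold, and FYN, a Src-family tyrosine kinase, fell to about 0.4 of its level without the drug. Around ATF3, 32 of the 33 genes of the integrated stress response had higher mean signals with doxycycline, by a median of 0.31 on the log2 scale, although ATF3 alone passed the test. For 93.9% of all genes the 95% interval of the change lay within a 2-fold range.

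The comparison uses 6 of the 18 arrays of the series. Tested were 3 arrays of ERα cells with doxycycline and no estradiol (E2), set against 3 arrays of the same cells without doxycycline. Arrays were put into these groups by their labels, but the comparison and the gene lists were chosen with earlier results of these data known. U2OS is an established human osteosarcoma line. Per the labels, its cells had been stably transfected with a doxycycline-inducible vector for ERα or for ERβ. Both groups compared here thus carry the ERα vector, and doxycycline is the only difference between them that the labels name. The further groups, of 3 arrays each, are ERα cells with doxycycline plus E2, ERβ cells with doxycycline plus E2, ERβ cells with doxycycline, and ERβ cells without it. The labels give no dose, no duration and no clone number, and nothing in them says whether a group's 3 arrays stem from separate cultures, so a p-value reflects only how these arrays spread, which may be technical. Since the drug and the receptor it induces come together, their effects cannot be told apart here, and no line without a receptor vector was analysed.

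The integrated stress response is a program in which phosphorylation of a translation initiation factor slows protein synthesis in general and favours translation of the transcription factor ATF4. ATF4 then induces genes of amino acid synthesis and import, aminoacyl-tRNA synthetases, and further regulators such as DDIT3, ATF3 and TRIB3. Doxycycline is a tetracycline antibiotic, and tetracyclines are also known to slow translation on mitochondrial ribosomes. Estrogen receptors are transcription factors that bind E2, and without it their classical target genes are mostly weakly active.

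ATF4 and its partners are known to bind composite promoter elements with the core letters TGATGNAA. The stretches below show where these letters, or their reverse complement TTNCATCA, stand upstream of 6 stress response genes whose signals were higher on all 3 doxycycline arrays. They are RefSeq sequences of build GRCh38.p14, written 5′ to 3′ along the gene's strand, with the match in capitals.
ATF3, chr1:212565186-212565253, plus strand: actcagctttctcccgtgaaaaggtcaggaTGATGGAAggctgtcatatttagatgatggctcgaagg
ASNS, chr7:97872439-97872506, minus strand: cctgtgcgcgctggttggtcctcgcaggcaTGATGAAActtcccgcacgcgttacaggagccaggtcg
CEBPG, chr19:33374041-33374108, plus strand: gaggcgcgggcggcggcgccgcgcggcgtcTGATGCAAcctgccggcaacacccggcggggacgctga
CHAC1, chr15:40953232-40953299, plus strand: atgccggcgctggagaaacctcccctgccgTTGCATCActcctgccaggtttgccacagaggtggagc
FGF21, chr19:48755440-48755507, plus strand: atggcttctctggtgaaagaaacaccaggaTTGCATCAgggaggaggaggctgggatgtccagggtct
GARS1, chr7:30594815-30594877, plus strand: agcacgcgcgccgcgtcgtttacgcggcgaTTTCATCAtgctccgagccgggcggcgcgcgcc

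A match to these letters on either strand was found in 10 of the 44 promoter windows of the list (22.7%), against 1270 of 35116 windows of all genes (3.62%). Each window spans 250 bases before and 50 after a gene's start. Of the 33 list members 28 had a window, and 10 of these 28 held a match (35.7%), as did 7 of the 17 with a window whose arrays did not overlap. The match in SLC3A2, the seventh of these, lay after its start and is not shown. AARS1, CARS1 and NARS1, whose groups overlapped, also held a match, that of AARS1 upstream, and are not shown either. A match describes the letters of a window and shows no binding. Since the list gathers genes of the ATF4 program, its share above that of all genes does not bear on doxycycline.

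The arrays of both groups were alike in depth and in pattern. Probes detected at a detection p below 0.01 made up 41.5% to 44.7% of all probes on doxycycline arrays and 42.2% to 43.9% on arrays without it. Across genes, log2 signals of 2 arrays of 1 group correlated at 0.985 to 0.992, and those of a doxycycline array and an array without it at 0.985 to 0.994, where genes are not independent replicates. The median SD of a gene was 0.142 with doxycycline and 0.175 without. All 10 markers of mesenchymal and osteosarcoma cells were detected on all 6 arrays, with VIM at 16.11 to 16.12 with doxycycline and 16.09 to 16.12 without. A gene is called measured where a probe was detected on at least 3 of the 18 arrays. Of 10 epithelial markers 6 were measured and 4, EPCAM, KRT8, KRT18 and KRT14, were detected on all 6 arrays. The summed signals of the 6 measured were 24700 to 32100 with doxycycline and 23200 to 24000 without, so the groups did not overlap in this sum. KRT18, the brightest of the 4, changed by 0.26, EPCAM by 0.10, KRT8 by 0.006 and KRT14 by -0.23, each with overlapping groups. The part of this in the results was not tested. Of the blood markers only CD68, and of the endothelial ones PECAM1, VWF and TIE1, were detected on all 6 arrays, while the probes of PTPRC, CD3E and CDH5 did not pass the detection filter.

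The probe for ESR1, the gene of ERα, did not show the induction. Its log2 signals were 5.46, 5.79 and 6.03 with doxycycline, detected on none of the 3 arrays, and 5.77, 6.16 and 6.72 without, detected on 1. These groups overlapped, and the change was -0.46 ± 0.23 (SE, adjusted p = 0.976, limma). In the ERβ line the ESR2 probe did change, by 4.68 ± 0.22 with doxycycline (adjusted p = 8.23e-10, limma), and in the ERα line ESR2 was not detected on any of the 6 arrays. Where the ESR1 probe lies relative to the vector's sequence was not looked up, so its signal does not test whether the receptor was induced.

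ATF3 and FYN were the genes past the threshold, an adjusted p below 0.05 (limma, all 18 arrays in 1 fit, Benjamini-Hochberg over 13505 genes). They make up 0.0148% of the genes tested, 0.0074% in each direction. At an unadjusted p below 0.05 there were 705 genes, or 5.22% of those tested, 434 higher with doxycycline (3.21%) and 271 lower (2.01%). This fit leaves the replicate numbers out, and with them as a block the count was 1191 (8.82%). All 3 doxycycline arrays lay above all 3 others for 731 genes (5.41%) and below them for 449 (3.32%). The median change of all genes was -0.002, and 49.4% of changes were positive.

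ATF3 lies at chr1:212565407-212620777 (GRCh38.p14). Its log2 signals were 11.18, 11.03 and 11.02 with doxycycline, against 9.98, 9.999 and 10.13 without. The groups did not overlap, and the arrays of each lay close together (SD 0.09 in both, n = 3). The rise was 1.04 ± 0.09 (SE, adjusted p = 0.000111, limma), a ratio of 2.05 with a 95% interval of 1.80 to 2.34. In bulk RNA, a change in signal per cell and a change in the share of cells with that signal cannot be told apart.

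FYN lies at chr6:111660332-111873452. Its log2 signals were 9.50, 9.79 and 9.48 with doxycycline, against 10.78, 10.93 and 11.11 without. Again the groups did not overlap. The fall was 1.35 ± 0.12 on the log2 scale, with an adjusted p of 0.000111 (limma), and the ratio was 0.393 with a 95% interval of 0.328 to 0.471. The gene has 4 measured probes, and the other 3 fell by 1.38, 1.05 and 1.38, with adjusted p of 0.000131, 0.00828 and 0.00122 over all kept probes (limma).

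Both calls depended on which arrays entered the fit. With the 6 ERα arrays alone the changes were as large but the adjusted p was 0.133 for both genes (limma), and without the replicate 1 set, the 6 arrays that share this number, it was 0.201 for both. Without the replicate 2 set the adjusted p was 0.0993 for ATF3 and 0.0553 for FYN, whereas without the replicate 3 set both stayed called, at 0.0179 each (limma). Across probes, rather than genes, 1 further probe passed, and it was chosen for mention after its values were seen. A second probe of SNAPC1, a subunit of the complex that drives small nuclear RNA transcription, read 9.42, 9.41 and 9.36 with doxycycline and 8.96, 8.69 and 8.74 without. It rose by 0.60 ± 0.08 (adjusted p = 0.00784 over kept probes, limma), whereas the brighter SNAPC1 probe that stood for the gene changed by -0.18 ± 0.24.

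**Figure D1:**
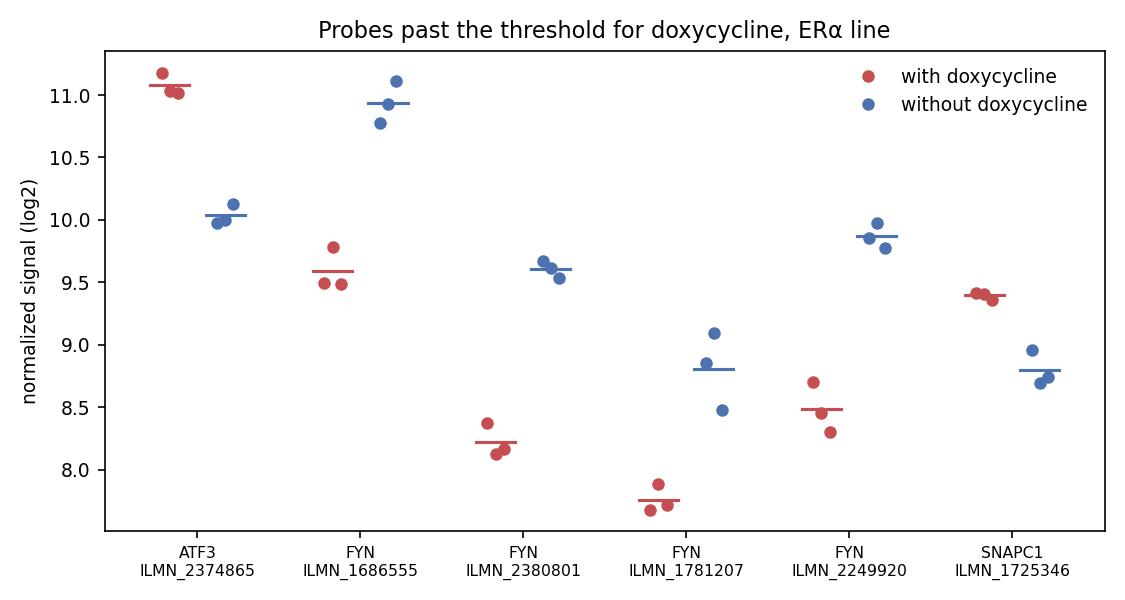
Normalized log2 signal (vertical axis) of the 6 probes past the threshold, by array, with doxycycline left and without it right in each pair. Points are arrays and lines are group means of 3. The ATF3 and SNAPC1 probes are higher with doxycycline, and all 4 FYN probes are lower, with no overlap between the groups for any of the 6.

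With E2 added to doxycycline, ATF3 changed by 0.04 and FYN by 0.02 further (adjusted p = 0.85 and 0.956, limma), in a comparison that shares the doxycycline arrays. In the ERβ line both genes changed in the opposite direction. FYN, which fell in the ERα line, read 11.17, 11.24 and 10.83 in ERβ cells with doxycycline and 9.80, 9.80 and 9.97 in ERβ cells without. That rise was 1.23 ± 0.12, and the difference between the changes, ERβ minus ERα, was 2.57 ± 0.17 (adjusted p = 8.65e-08, limma). ATF3 read 11.42, 11.45 and 11.32 in ERβ cells with doxycycline and 11.85, 11.67 and 11.68 in ERβ cells without. It fell there by 0.34, and the difference was -1.37 ± 0.13 (adjusted p = 2.75e-06, limma). On arrays without doxycycline the ERβ line thus had the higher ATF3 signal and the lower FYN signal, a contrast between lines that was not tested.

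Genes of the integrated stress response were higher together on the doxycycline arrays of the ERα line. All 33 genes of the list were measured, 32 had a positive change (97.0%, against 49.4% of all genes), and 19 had all 3 doxycycline arrays above all 3 others (57.6%, against 5.41%). At an unadjusted p below 0.05 there were 14 members, all higher, but only ATF3 passed after adjustment over all genes. The median change was 0.308, against -0.002 over all genes. By array, the median deviation of the members from their own mean was 0.208, 0.225 and 0.132 with doxycycline, against -0.0726, -0.144 and -0.311 without. The lowest value was that of array 3 without doxycycline, and the nearest arrays of the groups were 0.205 apart. With any 1 array or replicate set left out, the median stayed between 0.256 and 0.358. The list was chosen with earlier results of these data known, so its shift is described and was not tested.

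FGF21, a secreted metabolic hormone induced by ATF4, had log2 signals of 8.04, 7.87 and 7.49 with doxycycline, against 5.78, 5.45 and 5.84 without, where it was not well above background on any array. The signal was at least 2.84-fold higher with doxycycline, and the fitted change was 2.11 ± 0.42 (adjusted p = 0.197, limma). A second FGF21 probe differed by 1.61. GDF15, a stress-induced circulating factor, had 8.39, 8.45 and 7.86 with doxycycline and 7.13, 7.22 and 7.60 without, a change of 0.92 (adjusted p = 0.283, limma).

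SESN2, an inhibitor of the growth kinase mTORC1, had 7.79, 7.62 and 7.95 with doxycycline and 6.46, 6.62 and 6.98 without, a change of 1.10. CHAC1, which degrades glutathione, had 8.70, 8.28 and 8.15 with doxycycline and 7.29, 7.67 and 7.28 without, a change of 0.96. DDIT3, the pro-apoptotic factor CHOP, had 12.13, 12.34 and 11.98 with doxycycline and 11.35, 11.52 and 11.41 without, a change of 0.73. The groups did not overlap for any of the 3, and the adjusted p were 0.623, 0.537 and 0.657 in that order (limma). TRIB3, a pseudokinase that restrains ATF4, changed by 0.40 and CEBPG, a dimer partner of ATF4, by 0.37. ATF4 itself, which is controlled largely at translation, read 15.62, 15.66 and 15.84 with doxycycline and 15.63, 15.55 and 15.65 without, so its groups overlapped, and its ratio of 1.07 had an interval of 0.95 to 1.21.

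Enzymes of amino acid supply also had higher mean signals with doxycycline. CTH, which makes cysteine from cystathionine, had 11.59, 11.53 and 11.72 with doxycycline and 10.85, 10.61 and 10.86 without. Its change was 0.84, and its 3 probes gave 0.80 to 0.86. PSAT1, an enzyme of serine synthesis, changed by 0.60 with an interval of 1.20 to 1.90 as a ratio. ASNS, asparagine synthetase, had 14.01, 13.88 and 13.81 with doxycycline and 13.62, 13.28 and 13.09 without, a change of 0.57, while its second, dimmer probe gave 0.19. MTHFD2, a mitochondrial folate enzyme, changed by 0.49, and SHMT2, which supplies it, by 0.19. PHGDH, the first enzyme of serine synthesis, changed by 0.23 with overlapping groups.

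Among genes that load and export tRNA, the nuclear tRNA exporter XPOT had 12.34, 12.43 and 12.37 with doxycycline and 12.05, 12.01 and 11.71 without, a change of 0.46 (adjusted p = 0.312, limma). GARS1, glycyl-tRNA synthetase, changed by 0.39 without overlap. Its relatives AARS1, SARS1, EPRS1, WARS1, CARS1 and NARS1 changed by 0.04 to 0.22 with overlapping groups. Of the amino acid transporters, SLC3A2 changed by 0.43 without overlap and SLC7A11 by 0.14 with overlap. SLC7A5, the light chain that pairs with SLC3A2, was the member with a negative change, -0.03.

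**Figure D2:**
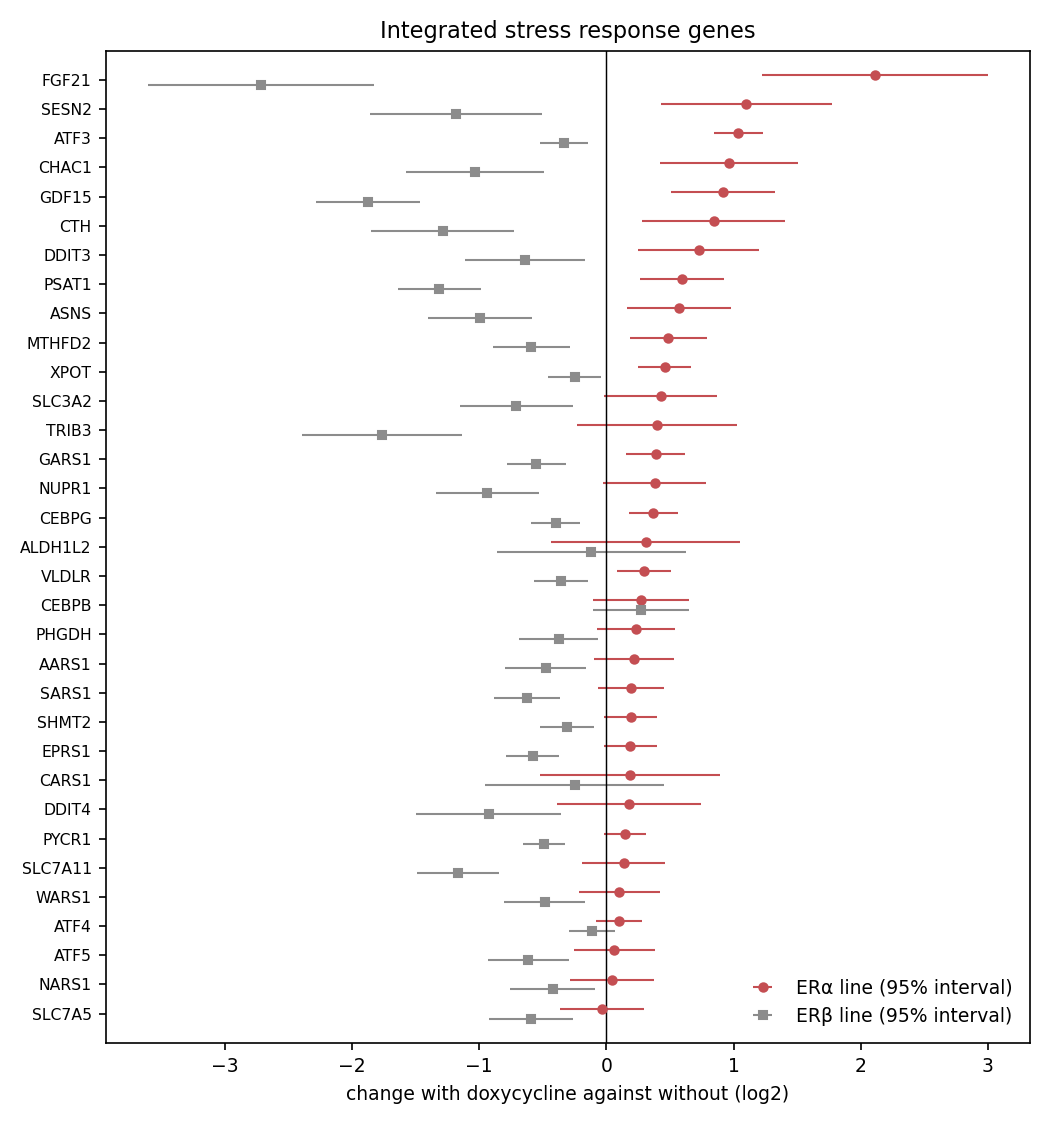
Change in log2 signal with doxycycline against without (horizontal axis) for the 33 genes of the integrated stress response, with ERα cells as circles and ERβ cells as squares below them. Points are fitted changes from 3 arrays a group and bars are 95% intervals. In ERα cells 32 points lie right of 0 and 14 intervals exclude 0, and in ERβ cells 32 points lie left of 0.

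In the ERβ line the same list moved the other way. Doxycycline lowered 25 of the 33 genes there and raised 0 past the threshold (limma), while 10.7% of all genes were called lower. The falls were uneven among the ERβ arrays. DDIT3 read 11.78, 12.79 and 11.62 with doxycycline and 12.96, 12.56 and 12.60 without. SESN2 read 7.44, 8.84 and 7.18 with it and 9.27, 8.97 and 8.77 without. On array 5 both thus lay within the range without the drug, whereas PSAT1 stayed below it, at 12.03 against 12.85 to 12.97. The difference of the changes passed for 22 of the 33, all lower in ERβ cells. Over all genes, 4.32% were called lower and 5.34% higher in this difference. Differences, ERβ minus ERα, were -2.79 for GDF15, -2.28 for SESN2, -2.13 for CTH and -1.91 for PSAT1. For FGF21 the difference was -4.22 or lower, a bound, since its ERα signal without the drug was at background. Without doxycycline the lines did not start alike. FGF21 read 5.78, 5.45 and 5.84 in ERα cells without the drug and 9.95, 9.69 and 9.51 in ERβ cells without it. With the replicate 1 set left out, 4 differences of the list passed instead of 22. E2, added to doxycycline in the ERα line, lowered 6 members and raised 2 (11.1% and 10.9% of all genes were called lower and higher), in a comparison that shares the doxycycline arrays. DDIT3, GDF15 and SESN2 fell by 0.70, 0.97 and 0.94 with E2.

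NF-kB targets and cytokines were also mostly higher on doxycycline arrays. Of 29 listed genes 18 were measured, 17 of these had a positive change, and 7 had all doxycycline arrays above all others (38.9%, against 5.41% of all genes). At an unadjusted p below 0.05 there were 3 members, all higher (3.21% of all genes), and 0 were called (0.0148% of all genes). The median change was 0.272, and the medians by array were 0.123, 0.186 and 0.155 with doxycycline, against -0.117, -0.107 and -0.18 without. TNFAIP3, an inhibitor of NF-kB signalling, had 9.27, 9.50 and 9.42 with doxycycline and 8.42, 8.71 and 8.73 without, a change of 0.78 (adjusted p = 0.417, limma). The cytokine IL6 had 8.26, 8.10 and 8.04 with doxycycline and 7.30, 7.79 and 7.45 without, and the chemokine CXCL8 had 11.41, 11.38 and 11.54 with doxycycline and 11.12, 10.67 and 10.77 without. NFKBIA, the inhibitor that NF-kB induces, changed by 0.15 with overlap. Unlike that of the stress list, this median moved with the background correction, to 0.162 without any.

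Immediate-early genes had a median change of 0.119 over 30 measured, 7 of them (23.3%) without overlap and all 7 higher, against 5.41% of all genes. Without ATF3, which stands in both lists, the median was 0.0846 and 6 were apart. KLF10, a transcription factor induced by TGF-beta, had 9.80, 10.05 and 9.81 with doxycycline and 8.99, 9.51 and 8.86 without, a change of 0.77 (adjusted p = 0.413, limma). MYC changed by 0.38 and EGR1 by 0.30, both without overlap, and FOS by 0.07 with overlap. p53 targets had a median of 0.0638 over 23, and of 0.0158 without GDF15 and SESN2, which the stress list also holds. All doxycycline arrays lay above all others for 7 of the 23 (30.4%, against 5.41% of all genes) and below for 1 (4.35%, against 3.32%). Without GDF15 and SESN2, 5 of 21 were apart and higher. The p53-induced cell cycle inhibitor CDKN1A changed by 0.07 with overlapping groups, MDM2 by 0.19, and GADD45A by 0.36 with an SD of 0.03 in each group.

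Genes of mitosis and the spindle mostly had lower means with doxycycline. Of 35 measured, 33 had a negative change and 2 a positive one (5.71%, against 49.4% of all genes). The median change was -0.108. In alternative settings 28 to 33 members were negative, against 38.9% to 56.1% of all genes. All doxycycline arrays lay below all others for 3 (8.57%, against 3.32% of all genes), and 0 were called (0.0148% of all genes). Medians by array were -0.0165, -0.0663 and -0.063 with doxycycline and 0.156, 0.049 and -0.0021 without, so the nearest arrays of the groups were 0.0144 apart. MKI67, the proliferation marker Ki-67, had 6.87, 6.68 and 7.24 with doxycycline and 7.45, 7.77 and 7.51 without, a change of -0.65 (adjusted p = 0.417, limma). The mitotic kinases PLK1 and AURKB changed by -0.22 and -0.17 without overlap, and AURKA by -0.10 with overlap. DNA replication genes had a median of -0.0323 over 43, with 5 apart and lower (11.6%, against 3.32% of all genes), among them the polymerase subunits POLE and POLD1 at -0.27 and -0.23. Cholesterol and fatty acid synthesis had a median of -0.126 over 28, where the arrays of the groups overlapped.

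**Figure D3:**
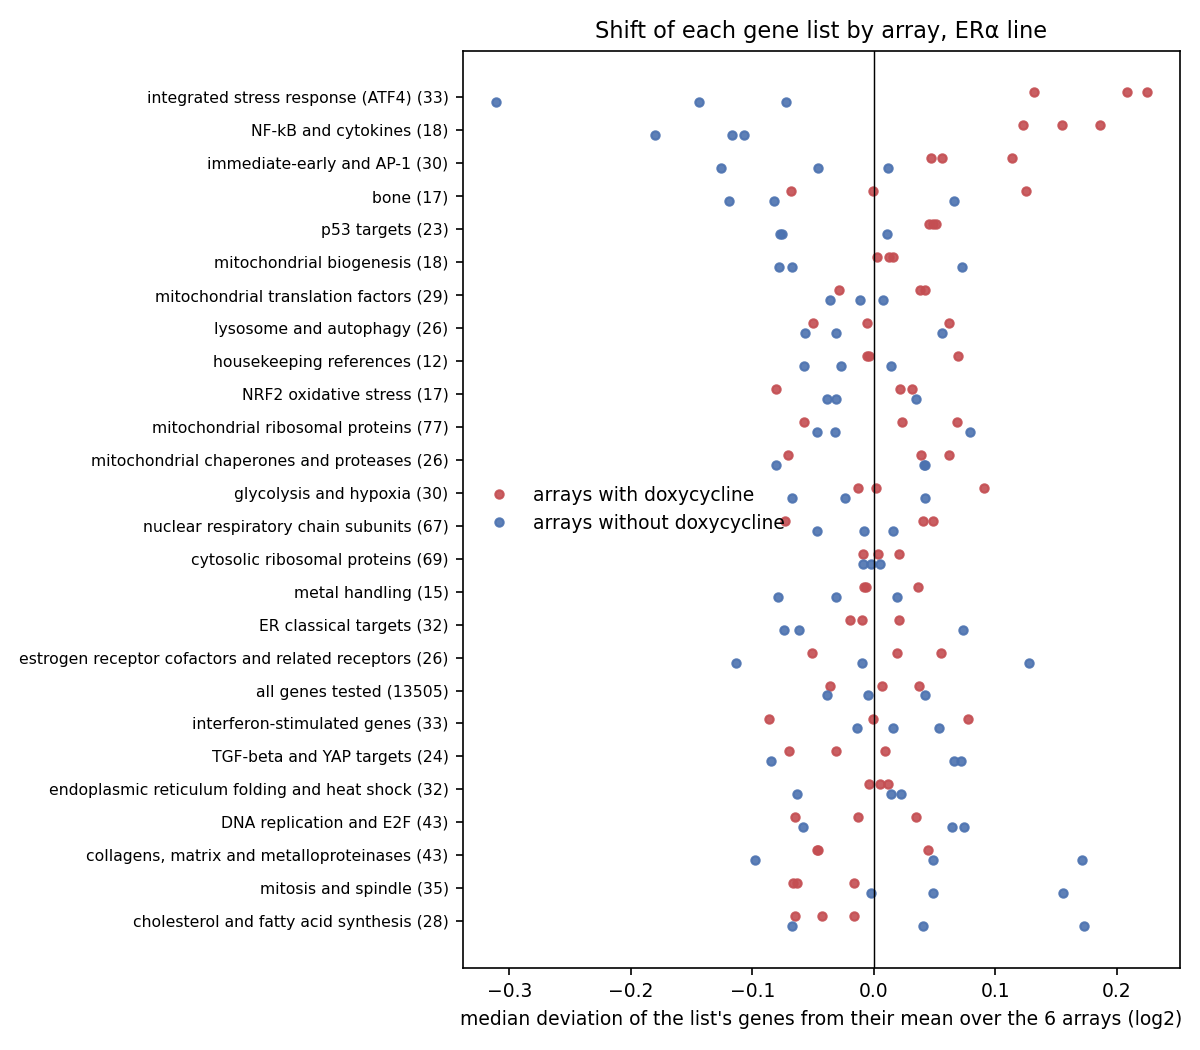
Median deviation of each list's genes from their mean over the 6 ERα arrays (horizontal axis, log2), with lists down the page and the number of genes measured in brackets. Red points are the 3 arrays with doxycycline, drawn above the blue points of the 3 arrays without. The integrated stress response and NF-kB lists show the widest gaps between groups, 0.205 and 0.23, and most other lists overlap.

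Lists of mitochondrial genes had medians near 0. The median change was 0.00814 for 67 nuclear-encoded respiratory chain subunits, 0.0155 for 77 mitochondrial ribosomal proteins, 0.0328 for 29 mitochondrial translation factors, 0.0135 for 26 mitochondrial chaperones and proteases and 0.0388 for 18 genes of mitochondrial biogenesis. In each of the 5 lists the arrays of the groups overlapped. Called were 0 genes, but with 0.0148% of all genes called, lists of this size would hardly hold any. In the biogenesis list 13 of 18 changes were positive (72.2%, against 49.4% of all genes). All doxycycline arrays lay above all others for 3 of the 18 (16.7%, against 5.41%). The 95% interval lay within a 2-fold range for 66 of the 67 chain subunits and for all genes of the other 4 lists, and within a 1.5-fold range for 94.0% of chain subunits and 96.1% of ribosomal proteins. LONP1, the matrix protease, had the highest change of the chaperone list, 0.30, with overlapping groups, and HSPD1, the matrix chaperonin, changed by -0.02. Transcripts of the mitochondrial genome itself were not measured by a named probe.

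Other stress and housekeeping lists also had small medians. Cytosolic ribosomal proteins had a median of 0.00786 over 69, NRF2 targets 0.0176 over 17, genes of metal handling 0.00652 over 15, and chaperones of the endoplasmic reticulum and heat shock -0.027 over 32. HSPA5, the chaperone induced when proteins misfold in the endoplasmic reticulum, changed by -0.03 with overlap, and HMOX1, a heme-degrading NRF2 target, by 0.23 with overlap. Metallothionein MT2A changed by 0.04. Interferon-stimulated genes had a median of -0.00992 over 33, glycolysis and hypoxia genes 0.00833 over 30, lysosome and autophagy genes 0.0235 over 26, and housekeeping genes 0.0198 over 12. Matrix genes had -0.0622 over 43, TGF-beta and YAP targets -0.0111 over 24, bone genes 0.108 over 17 with overlapping arrays, and receptor cofactors 0.00232 over 26. None of these lists had a called gene, where the share over all genes was 0.0148%.

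Classical estrogen receptor targets had a median change near 0 with doxycycline alone. Of 40 listed, 32 were measured, and their median change was 0.00297, with 17 positive and 0 called (0.0148% of all genes). Of the other 8, 5 had a probe that was not detected on enough arrays, PGR and TFF1 among them, and 3 had no named probe. Of the 32, 6 had all doxycycline arrays above all others (18.8%, against 5.41% of all genes) and 2 had them below (6.25%, against 3.32%). The highest change was that of STC2, 0.299, and the lowest that of PTGES, -0.478. Detected on all 6 arrays were 24 of the 32, and 6 were detected on none, where an interval bounds a background signal and not the transcript. All 32 intervals lay within a 2-fold range, 26 of them within 1.5-fold. The highest upper bound was 1.69-fold and the lowest lower bound 0.514-fold. GREB1, a receptor coactivator, read 8.37, 7.998 and 8.11 with doxycycline and 7.93, 7.79 and 8.02 without, a change of 0.25 with overlapping groups. CA12, a carbonic anhydrase, had a change of -0.21. The receptor kinase RET was not well above background on any of the 6 arrays. With E2 added, 24 of the 32 rose and 2 fell (limma), against 10.9% and 11.1% of all genes, in a comparison that shares the doxycycline arrays. GREB1 rose by 2.43 and CA12 by 3.78, and RET was at least 25.1-fold higher with E2. In the ERβ line doxycycline alone raised 13 of the 32 and lowered 2, against 9.9% and 10.7% of all genes.

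The breadth of the contrast with the ERβ line was large. There doxycycline changed 2776 genes (20.6%), 1337 higher and 1439 lower, and the difference between the lines passed for 1305 genes (9.66%), or for 1969 with the replicate number as a block. Doxycycline raised 419 genes at least 2-fold in ERβ cells. In ERα cells their median change was -0.0156, with 0 called higher and 1 lower, FYN (0.0074% of all genes in each direction). Their 95% interval in ERα cells lay within a 2-fold range for 388 (92.6%), close to the 93.9% of all genes, and 95 of them were detected on none of the 6 ERα arrays. The 196 genes lowered at least 2-fold had a median of -0.0333 in ERα cells and 0 calls. The genes that doxycycline plus E2 raised at least 2-fold in ERβ cells numbered 816, with a median of -0.00976 in ERα cells given doxycycline alone.

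MSMB, a secreted prostate protein, read 4.86, 5.09 and 5.05 in ERα cells with doxycycline and 4.93, 4.995 and 5.499 without, and was detected on none of these arrays. In ERβ cells without the drug it was not well above background on any array, and with doxycycline its signal there was at least 283-fold higher (adjusted p = 5.20e-15, limma). Of the 20 genes with the largest rises and falls in ERβ cells, 0 were called in ERα cells (0.0148% of all genes). Among the 10 rises, 6 were detected on none of the 6 ERα arrays, namely MSMB, CCN5, MAP7D2, KRT73, KRT19 and FGFBP1. TGM2, a transglutaminase, had 10.30, 10.14 and 10.15 in ERα cells with doxycycline and 10.66, 10.95 and 10.78 without. Its change of -0.60 (adjusted p = 0.197, limma) stood against one of 4.88 in ERβ cells. ADAMTS20, a secreted protease, changed by 0.68 without overlap in ERα cells and fell by 3.20 in ERβ cells.

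**Figure D4:**
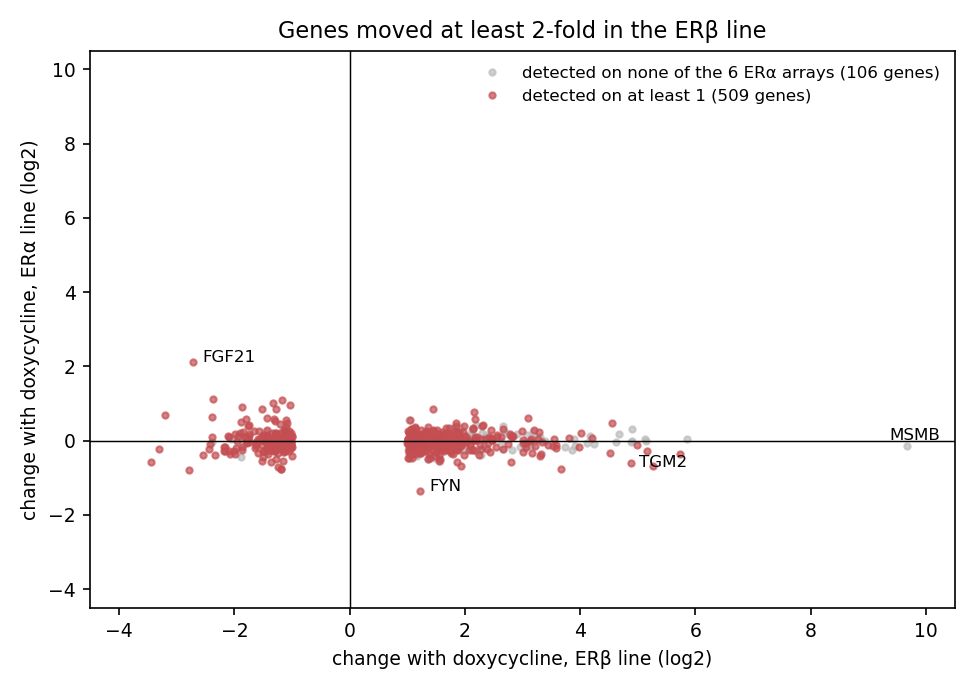
Change with doxycycline in ERα cells (vertical axis, log2) against that in ERβ cells (horizontal axis, log2, same scale) for the genes called in ERβ cells with a change of at least 2-fold, 419 raised and 196 lowered. Grey points were detected on none of the 6 ERα arrays. ERα values crowd around 0, with FGF21 at 2.11 and FYN at -1.35 as the extremes. Fitted changes are drawn, which for probes at background in 1 group, such as FGF21 and MSMB, are no exact folds.

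Below the threshold, the rises of lowest p without overlap held further stress genes beside others. TGM4, a transglutaminase, had 6.98, 6.54 and 6.55 with doxycycline and 5.60, 5.53 and 5.98 without, where it was not well above background on any array, and was at least 1.31-fold higher (adjusted p = 0.155, limma). CCDC148 had 8.39, 8.52 and 8.39 with doxycycline and 7.93, 8.07 and 8.04 without. FAF1, an adaptor of Fas signalling, changed by 0.47, and ALOXE3, an epidermal lipoxygenase, by 0.84. ALOXE3 was detected on 1 of the 3 arrays without the drug. None of these passed, with adjusted p of 0.155 to 0.413.

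Among the falls next to FYN, H3C7, a histone H3 gene, had 6.495, 6.19 and 6.475 with doxycycline and 7.92, 7.35 and 7.08 without, a change of -1.07 (adjusted p = 0.136, limma). Histone H3 genes are near-identical copies, so its probe may share signal with others. UCN2, a peptide of the corticotropin-releasing hormone family, had 6.65, 7.08 and 6.42 with doxycycline and 7.65, 7.76 and 7.31 without. APAF1, the scaffold of the apoptosome, had 9.91, 9.80 and 9.85 with doxycycline and 10.27, 10.29 and 10.29 without, a change of -0.43 (adjusted p = 0.197, limma). MAMDC2, RGPD1, ASIC1 and F13A1 changed by -1.18, -0.70, -0.44 and -0.67 without overlap. CGB7, a chorionic gonadotropin subunit with near-identical copies, was not well above background on any doxycycline array and was at least 1.38-fold lower there. Adjusted p of these falls ran from 0.136 to 0.415.

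The intervals show how large a change the 6 arrays still allowed. The median half-width of the 95% interval was 0.297 on the log2 scale, or 1.23-fold, and its 90th percentile over genes was 0.617, or 1.53-fold. The whole interval lay within a 1.5-fold range for 9868 genes (73.1%) and within a 2-fold range for 12683 (93.9%). At a Bonferroni level over all genes, 41.3% lay within a 2-fold range. Bounds were tightest for bright genes. Of the 3376 brightest genes 94.9% lay within 1.5-fold and 99.1% within 2-fold, against 25.9% and 81.6% of the 3377 dimmest.

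Bounds also differed with detection. For the 11356 genes detected on all 6 arrays, 84.0% of intervals lay within 1.5-fold and 97.6% within 2-fold. For the 1730 genes detected on 1 to 5 arrays these shares were 11.3% and 69.7%. For the 419 genes detected on none they were 32.7% and 94.7%, but there the narrow interval bounds a background signal and not the transcript. At the other end, 86 genes, ACTB and VIM among them, averaged above 16 on the log2 scale, where the highest mean was 16.13. Whether these probes were saturated was not tested, so their narrow intervals are not read as close bounds on the transcript.

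**Figure D5:**
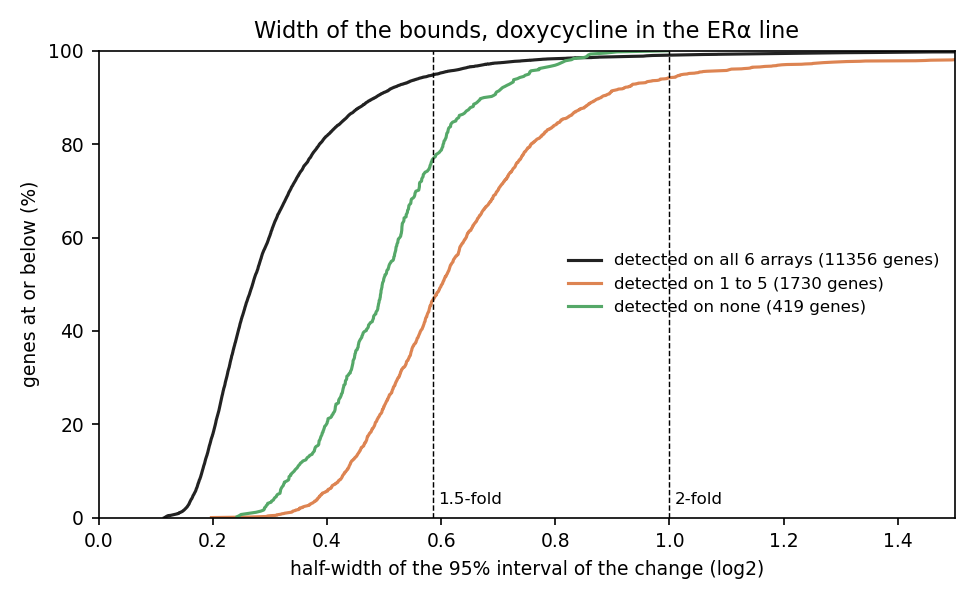
Share of genes (vertical axis, %) whose 95% interval has at most the half-width on the horizontal axis (log2), by detection on the 6 ERα arrays. Dashed lines mark 1.5-fold and 2-fold. The curve of genes detected on all 6 arrays lies left of the other 2 curves over most of its length.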

How the data were processed

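The 18 samples, 3 in each of 6 groups, were run on 1-colour Illumina arrays as biotin-labelled cRNA. The authors deposited probe intensity values, not normalized between arrays per the file headers. Beside every intensity stands a deposited detection p-value. A second deposited table holds processed intensities. The submitters' processing notes mention lumi, and further steps are not stated. That table served only as an alternative. Columns 4 to 6 of each line are known by group alone, and numbers are those of the columns. Arrays limit the precision by their number, 3 a group.

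Of 48804 probe lines 1 repeat was dropped. Of 48803 probes 27578 had 1 gene symbol, 13 several and 21212 none. Symbols came from the platform annotation, 27541 matched the reference gene table by entrez identifier, and 0 changed. Background was removed from the deposited signals by normexp, fitted through the detection p-values, followed by quantile normalization and the log2 scale (neqc, offset 16, limma 3.58.1, R 4.3.3). A probe needed a detection p under 0.01 on 3 or more of the 18 arrays (24226 probes), and the kept probe with the highest mean stood for each of 13505 genes, which drops 4899 further probes.

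The 6 groups were fitted together without covariates (lmFit and eBayes, residual df 12, prior df 2.66), two-sided, with Benjamini-Hochberg adjustment over all genes and a threshold of 0.05. The contrasts were doxycycline against none in ERα cells, the same in ERβ cells, the difference between both, doxycycline plus E2 against none in ERβ cells, and E2 in ERα cells. Lists are described by counts and medians with no test. Scripts were tested on simulated data. A gene not well above background on all arrays of a group has a bound only: the brighter group's mean against, per array, the higher of the dim probe's signal and the lowest signal of detected probes.

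Named genes are ESR1 and ESR2, all called genes, the 10 rises and 10 falls of lowest p whose arrays do not overlap and that were detected on at least 3 of the 6 arrays, the first 3 measured members of each list and up to 3 more with the largest change without overlap, and the 10 largest rises and falls in ERβ cells. Further members of the integrated stress response, NF-kB, mitosis and estrogen target lists were named after their values were seen. The comparison and the gene lists were chosen with earlier results of these data known.

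Replicate numbers of columns 4 to 6 were those of the processed column in their group that ranked probes most alike (rank correlation 0.973 or more, other columns 0.944 or less). Same-numbered ERα arrays deviated together, at correlations of 0.161, 0.557 and 0.484 across genes, so the numbers pair the arrays by this check, not by the labels. Alternatives were other background corrections, normalizations, filters, probe rules, weights and priors, the 6 arrays alone, the replicate block, and each array or replicate set left out.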

Additional observations from a re-analysis of the deposited data

Results flagged for a closer look

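The doxycycline change differed between the lines, by the test of the difference itself (limma), for 1305 genes. Among them were 22 of the 33 integrated stress response genes, each with the lower change in ERβ cells. Differences are given as ERβ minus ERα, and no explanation was tested. The genes below were named for their values in ERα cells, which enter the difference, so that it passed is not independent of their choice.

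For regulators and secreted factors of the stress list the difference was -2.79 for GDF15, -2.28 for SESN2, -2.16 for TRIB3, -2.00 for CHAC1, and -1.37 for both ATF3 and DDIT3. For FGF21, not well above background in ERα cells without the drug, it was -4.22 or lower, a bound. FGF21 and TRIB3 varied widely among the ERβ arrays with doxycycline (SD 1.26 and 0.842, n = 3). The cofactor gene CEBPG differed by -0.77 and the lipoprotein receptor gene VLDLR by -0.65. For enzymes of amino acid and folate metabolism it was -2.13 for CTH, -1.91 for PSAT1, -1.56 for ASNS, -1.08 for MTHFD2, -0.64 for PYCR1 and -0.50 for SHMT2. For transport and tRNA loading it was -1.13 for SLC3A2, -0.94 for GARS1 and -0.71 for XPOT.

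Outside the list, FYN differed by 2.57, having been called in both lines in opposite directions. TGM2 differed by 5.48. F13A1, a clotting factor subunit that was not well above background in ERβ cells without the drug, differed by 5.56 or more. Smaller differences were 1.30 for UCN2, 0.91 for H3C7, 0.70 for APAF1 and 0.56 for ASIC1. GADD45A, a stress-induced growth arrest gene, differed by -1.19. TGM4 and MAMDC2 were not well above background on any ERβ array, so no difference is given for them.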

How the results depend on the processing

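ATF3 and FYN were called in 18 of 22 alternative settings each, with changes of 0.931 to 1.12 and -1.45 to -1.18, and adjusted p of up to 0.344 and 0.33 (limma). The count called was 0 with the 6 ERα arrays alone (527 at an unadjusted p below 0.05), 0 with the replicate block on those 6 (963), 34 with the deposited processed values, 7 with array weights, and 0 to 3 with arrays or replicate sets left out: 0 without set 1 (424) or set 2 (567), and 3 without array 2 or 3 lacking doxycycline or array 5 with it. Array 3 without doxycycline had the lowest weight of the 6, 0.383, and without it 1235 genes had an unadjusted p below 0.05 instead of 705. With the replicate block on all 18 arrays, the pairing left the same 2 genes called, with 1191 at an unadjusted p below 0.05. The stress list had 0 called members in both 6-array fits, 7 with processed values, 2 with weights and 0 to 1 with arrays left out, and kept a median of 0.256 to 0.358 and 29 to 33 positive members throughout. The count of genes differing between lines was 1969 with the replicate block, 2759 with processed values, 2106 with both, 2003 with weights, and 411 to 1263 with arrays left out (lowest without set 1, then 660 without set 2). Stress members among them numbered 4 to 23 with arrays left out and 4 to 29 over all alternatives.

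The share within 1.5-fold was 71.3% with 6 arrays, 79.8% with the block, 82.5% with both, 96% without background correction, 71.3% with a median shift, 98.5% and 98.2% with processed values without and with the block, 68.4% without filter, 84.7% for genes detected on all 6 arrays, 71.4% with weights, 71.5% with a trended robust prior, and 56.7% to 68.7% with arrays left out. Within 2-fold it was 93%, 97.2%, 97.4% and 99.3% for the first 4 of these, 99.9% with processed values either way, 94.5%, 97.7% and 93.3% without filter, for detection on all 6 and with weights, and 87.3% to 91.6% with arrays left out. NF-kB medians were 0.162 without background correction, 0.352 with a median shift, 0.184 with processed values either way, 0.232 for detection on all 6, and 0.185 to 0.288 with arrays left out. Immediate-early genes had 0.0624 without background correction. The median shift moved the median of all genes to 0.0381, with translation factors at 0.0806 and cytosolic ribosomal proteins at 0.0324, and cyclic loess put these at 0.0417. With arrays left out medians ran from -0.0377 to 0.0765 (respiratory chain), -0.0295 to 0.0945 (mitochondrial ribosome), 0.0205 to 0.0703 (translation factors), -0.00801 to 0.0183 (cytosolic ribosome), -0.103 to -0.0207 (replication), -0.176 to -0.0777 (mitosis), 0.0255 to 0.0951 (p53) and -0.0483 to 0.0318 (chaperones). MRPL3 turned to -0.0576 with the mean of probes, and RPS19 to 0.00762 and 0.0238 with a median shift and cyclic loess. The cause of these moves was not tested. Genes near background had the widest bounds.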
